A study of Mus musculus with 2 samples.

Results

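Nuclear factor I (NFI), ZEB and ZFHX proteins are 3 families of DNA-binding transcription factors, and 8 of their genes were followed here through the cell types of the embryonic mouse forebrain. The genes were taken by symbol from the deposited gene list: *Nfia*, *Nfib*, *Nfic* and *Nfix*, *Zeb1* and *Zeb2*, and *Zfhx3* and *Zfhx4*. They are 8 of 32285 genes listed, and all 8 passed the filter on low counts in every comparison. The data are unique molecular identifier (UMI) counts per gene and cell from droplet single-cell RNA sequencing of the dorsal telencephalon at embryonic day 14.5. There were 2 libraries, called replicate 1 and replicate 3, both labelled WT, from control embryos called EomesMllt3 (EoMltt3 in the sample names) that belong to an Eomes-Cre mouse line. The study's methods give a C57BL/6 J background for the single-cell mice. Whether these controls carried Cre or another allele, their sex and whether embryos were pooled is not given in the sources used here. The design holds no treatment, and the comparisons are between cell classes within these 2 libraries. P-values therefore set differences between classes against the spread of UMI sums per class in these 2 libraries, estimated over all classes of a fit. Sums of the same library entered the main fits as if independent, without a block for the library.

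NFI proteins bind DNA as dimers and are known for driving the maturation of radial glia, the onset of gliogenesis and the growth of cortical axon tracts. ZEB proteins carry zinc fingers at both ends and repress genes through E-box motifs, together with CtBP corepressors and SMAD proteins. *Zeb1* is known for keeping neural progenitors undifferentiated, and *Zeb2* for directing migrating interneurons and the timing of cortical cell fates. ZFHX proteins are very large, with many zinc fingers and several homeodomains, and are known from neuronal differentiation and from circadian control (*Zfhx3*). In the dorsal telencephalon, radial glial cells (RGCs) line the ventricle, give rise to intermediate progenitor cells (IPCs) marked by *Eomes*, and both produce excitatory projection neurons. GABAergic interneurons arrive from the medial and caudal ganglionic eminences (MGE, CGE) below.

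In GRCm38.p6, the RefSeq assembly that corresponds to the mm10 build named by the submitters, the spans are as follows. *Nfib* lies at chr4:82290173-82506751 and *Nfia* at chr4:97578066-98118876, on the same chromosome. *Nfix* lies at chr8:84704712-84801238 and *Zfhx3* at chr8:108279311-108961636. *Nfic* lies at chr10:81396191-81431919, *Zeb2* at chr2:44983512-45117442 and *Zfhx4* at chr3:5218218-5415861. *Zfhx3* has the longest span (682.3 kb) and *Nfic* the shortest (35.7 kb) of the 8. *Zeb2os*, a noncoding gene antisense to *Zeb2*, is listed as a gene of its own, and whether counting used the strand is not given in the sources used here.

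RefSeq promoter windows, which run from 250 bases before to 50 bases after a transcription start, were at hand for 5 of the 8 genes, with 4 windows each for *Zeb2* and *Nfix* and 1 each for *Nfia*, *Nfic* and *Zfhx3*. They were searched on both strands for the NFI half-site TTGGC, the full NFI palindrome (TTGGC, then any 5 bases, then GCCAA), which holds 2 half-sites, and the E-box CACCTG that ZEB proteins bind. The half-site was in 8 of the 11 windows, against 46.7% of all 32851 windows of this length, so these short letters are common. Windows of the same gene can overlap, and 1 *Zeb2* half-site was counted in 2 windows, at positions -81 and -107. The palindrome was in 0 of the 11 windows and in 12 of all windows. The E-box was in 1 window, of *Nfix*, against 20.2% of all windows. The stretches below are shown because they carry the recognition letters of 2 of the families in the members' own promoters. Each is read 5′ to 3′ on the gene's strand (GRCm38.p6), with the half-site, or for the last one the E-box, in capitals. The fourth also holds another half-site, TTGGC, that is left in lower case.
Zeb2, minus strand, chr2:45117494-45117523: caggcgaggctgTTGGCgtccgcaccctta
Zeb2, minus strand, chr2:45113343-45113372: gaggataatgatGCCAAaggcttgcttgac
Zfhx3, plus strand, chr8:108714579-108714608: caggccagggcaGCCAAggctcctgtcccc
Nfix, minus strand, chr8:84772863-84772892: cttctgggggcaGCCAAacattggccagtc
Nfix, minus strand, chr8:84776047-84776076: ggtatggggtccCAGGTGctggatggcacc
GCCAA and CAGGTG are the same motifs read on the opposite strand. The first *Zeb2* half-site begins 69 bases before the transcription start and the fourth sequence's 5 bases before one of the *Nfix* starts. These are matches of letters and no binding was measured.

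The libraries held 6163 and 8870 barcodes with 64182006 and 93295807 UMIs, and a median of 9802 and 9754 UMIs per barcode. After filters on UMIs, mitochondrial share and predicted doublets, 12136 of 15033 cells remained and fell into 27 clusters, which were named only where at least 3 markers of a class were on. The 8 genes were left out of the genes used for clustering, but the classes were drawn on other genes of the same cells. The libraries shared 23 barcodes and differed from each other well beyond sampling noise. RGC-like cells numbered 635 in replicate 1 and 1497 in replicate 3, IPC-like cells 739 and 1276, projection neuron-like cells 2713 and 3184, and MGE interneuron-like cells 335 and 224. A second GABAergic cluster, called LGE-like, carried 4 of 6 CGE markers as well as lateral ganglionic eminence markers and held 376 cells in replicate 1 but 26 in replicate 3. The microglia-like cells were led by *Pf4* and *Mrc1*, genes known from border macrophages. Levels are given as CPM, the usual scaling of a gene's UMIs in a class by all UMIs of that class, for replicate 1 and then replicate 3. CPM is not corrected for gene length, so levels are compared within a gene and never between genes. Red blood cell-like cells serve as a measure of free RNA. This assumes that they express none of the 8 genes, which was not tested.

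The 8 genes had different profiles over the classes, and the orders given are those among the 8 classes with at least 30 cells in each replicate. *Nfib* was highest in projection neuron-like cells, at 4388 and 4964 CPM. It stood at 3095 and 3127 CPM in Cajal-Retzius-like cells, the early *Reln*-producing neurons of the marginal zone, at 2958 and 3016 CPM in IPC-like cells and at 2343 and 2332 CPM in RGC-like cells. In MGE interneuron-like cells it was down to 372 and 624 CPM, and in red blood cell-like cells 147 and 48.0 CPM were counted. The replicate ranges of these 6 classes did not overlap, while meningeal-like cells (805 and 541 CPM) overlapped MGE interneuron-like cells.

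*Nfix* followed the same order at its upper end, at 813 and 857 CPM for projection neurons, 809 and 746 in Cajal-Retzius-like, 623 and 581 in IPC-like and 460 and 475 in RGC-like cells. It was at 15.3 and 82.0 CPM in MGE interneuron-like, 60.6 and 32.7 in meningeal-like and 83.5 and 5.77 in red blood cell-like cells. The last 3 overlap, so the low end of *Nfix* could not be told apart from free RNA.

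*Nfia* was not called between classes of the excitatory lineage in the main fits given below. It measured 2319 and 2393 CPM in IPC-like, 2035 and 2605 in projection neuron-like, 2042 and 2110 in RGC-like and 1800 and 2257 in Cajal-Retzius-like cells, and each class overlapped the next in the order. IPC-like and RGC-like cells, which are not neighbours in this order, did not overlap each other. Non-neural classes were lower, with 988 and 851 CPM in meningeal-like and 734 and 670 in pericyte-like cells.

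*Nfic*, the family member known for wide expression outside the nervous system, had another order. It was highest in meningeal-like cells (91.6 and 86.7 CPM), then in pericyte-like (39.5 and 52.9) and RGC-like cells (47.9 and 40.0), and was 11.5 and 10.4 CPM among projection neurons, below IPC-like (18.4 and 12.4) and MGE interneuron-like cells (16.4 and 15.1).

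The ZEB genes had opposite profiles in the excitatory lineage. *Zeb1* (chr18:5591327-5775468) was highest in pericyte-like cells (1204 and 1051 CPM) and meningeal-like cells (987 and 1028 CPM). It measured 485 and 409 CPM in RGC-like and 402 and 471 CPM in IPC-like cells, whose ranges overlap, and only 42.5 and 50.5 CPM among projection neurons. *Zeb2* was highest in MGE interneuron-like cells (2495 and 2395 CPM), followed by pericyte-like (1360 and 1149 CPM) and projection neurons (1201 and 1092 CPM). RGC-like cells had 285 and 251 CPM and IPC-like cells 284 and 188 CPM of *Zeb2*. Pericyte-like cells were therefore high for both ZEB genes, MGE interneuron-like cells for *Zeb2* alone and meningeal-like cells mainly for *Zeb1*.

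*Zfhx3* was highest in pericyte-like cells (431 and 463 CPM), then in meningeal-like (133 and 163 CPM) and RGC-like cells (44.8 and 47.8 CPM). It was low in IPC-like (14.0 and 18.2 CPM) and projection neurons (16.6 and 15.4 CPM), and 0 of its UMIs fell in red blood cell-like cells of either replicate. *Zfhx4* was highest in meningeal-like (378 and 352 CPM), RGC-like (239 and 254 CPM) and IPC-like cells (284 and 197 CPM) and lower among projection neurons (89.0 and 47.4 CPM).

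**Figure D1:**
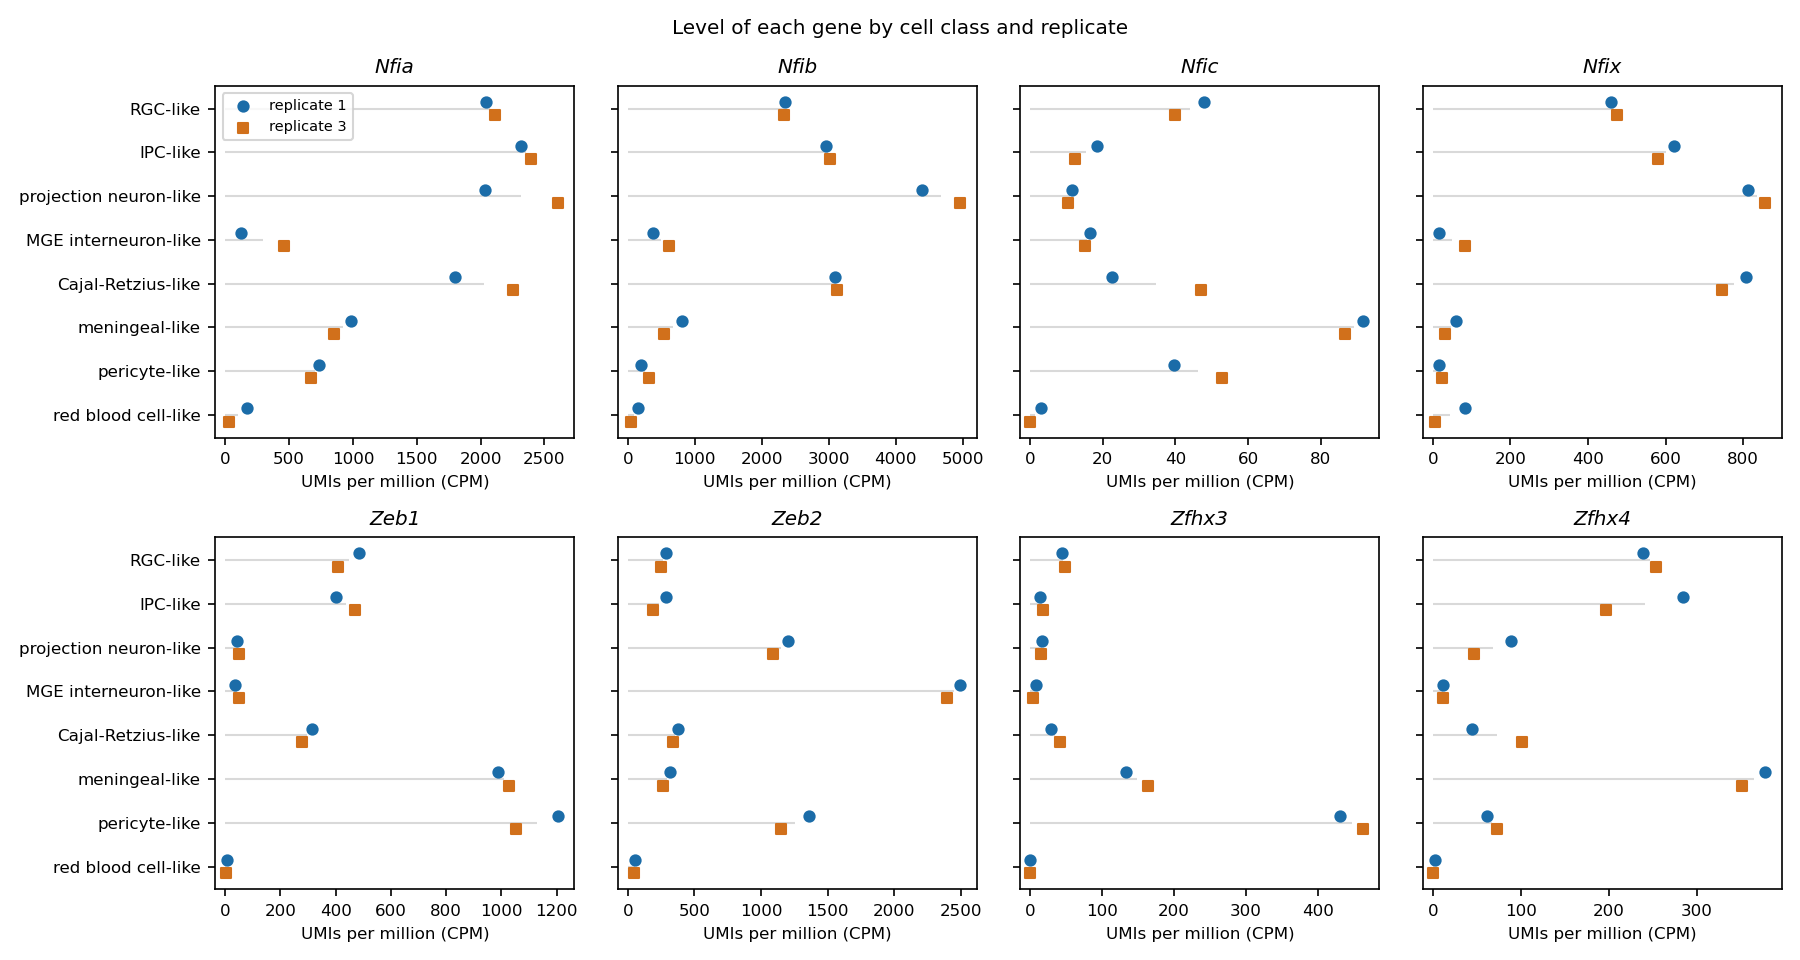
Level of each of the 8 genes (x axis, CPM, a separate linear scale per panel) in the 8 cell classes with at least 30 cells in each replicate (y axis), with circles for replicate 1, squares for replicate 3 and a grey line to their mean. *Zeb2* peaks in MGE interneuron-like cells at 2495 and 2395 CPM while *Zeb1* peaks in pericyte-like cells at 1204 and 1051 CPM.

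Classes with fewer than 30 cells in a replicate are given as values only. Endothelial-like cells (25 and 45 cells) had *Zeb1* at 473 and 498 CPM and *Zeb2* at 93.0 and 107 CPM. Microglia-like cells (15 and 28 cells) had *Zeb2* at 1307 and 1007 CPM and *Zfhx3* at 312 and 231 CPM, the latter above meningeal-like cells in both replicates, and *Zeb1* at 57.0 and 45.5 CPM. Hem or choroid plexus-like cells (18 and 143 cells) had *Nfia* at 2477 and 2209 CPM. In LGE-like cells the replicates differed strongly, with *Zfhx3* at 589 CPM in replicate 1 and 98.9 CPM in replicate 3 and *Zfhx4* at 400 and 7.61 CPM, the latter from 884 UMIs and 1 UMI, so that in replicate 1 alone *Zfhx3* was above pericyte-like and *Zfhx4* above meningeal-like cells. *Zeb2* in LGE-like cells was 1142 and 1514 CPM. With 26 cells in replicate 3, no test of LGE-like against MGE interneuron-like cells was made.

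To see which of the genes change as radial glia give rise to intermediate progenitors, IPC-like cells were compared with RGC-like cells. Only *Nfic* and *Zfhx3* passed the threshold, both lower in IPC-like cells. *Nfic* was 2.84-fold lower (log2 fold change -1.51 ± 0.21 (SE, n = 2 libraries), edgeR adjusted p = 8.6e-05). *Zfhx3* was 2.81-fold lower (log2 fold change -1.49 ± 0.18, edgeR adjusted p = 2.96e-05). The count is 2 of 8, both lower, against 39.7% of the 13257 genes tested that were called (17.1% higher, 22.6% lower). For *Zeb1* the log2 difference was -0.02 ± 0.18 and for *Zeb2* it was -0.17 ± 0.19. *Nfib* and *Nfix* had log2 differences of 0.37 ± 0.25 and 0.38 ± 0.39, which passed the threshold only when the 2 classes were fitted alone (edgeR adjusted p = 0.0297 and 0.0131). The median log2 difference was -0.02 over the 8 genes and -0.04 over all genes tested. The IPC-like class includes a cluster of 243 and 431 cells that also carried all 9 RGC markers. Its part in these differences was not tested.

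To see which change as neurons form, projection neuron-like cells were compared with IPC-like cells. *Zeb2* was 5.47-fold higher (log2 fold change 2.45 ± 0.20, edgeR adjusted p = 5.11e-07) and *Zeb1* 8.39-fold lower (-3.07 ± 0.19, edgeR adjusted p = 5.88e-08), and in neither gene did the replicates of the 2 classes overlap. *Zfhx4* was 3.13-fold lower (-1.64 ± 0.29, edgeR adjusted p = 0.000389), with log2 values of -0.90 with doublets kept and -0.74 with the stricter filter on cells, both still called. *Nfib* was 1.75-fold higher (0.81 ± 0.26, edgeR adjusted p = 0.0196), a call that was lost without scaling for composition (0.65, edgeR adjusted p = 0.0527). The *Nfib* call was also lost with the stricter filter on cells (0.63, edgeR adjusted p = 0.0623) and at a clustering resolution of 0.6 (0.80, edgeR adjusted p = 0.0587). In all, 4 of 8 genes were called, 2 higher and 2 lower, against 45.7% of all genes tested (24.5% higher, 21.2% lower). *Nfix* (0.64 ± 0.39), *Nfia* (0.14 ± 0.37), *Nfic* (-0.31 ± 0.21) and *Zfhx3* (0.13 ± 0.18) did not pass. *Nfix* did pass under 4 alternatives, without the low-count filter (edgeR adjusted p = 0.000983), with only the 2 classes fitted (0.00406), with doublets kept (0.0445) and at a clustering resolution of 1.5 (0.0169).

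Against RGC-like cells, 7 of 8 genes were called in projection neuron-like cells, 3 higher and 4 lower, where 61.5% of all genes were called (31.6% higher, 30% lower). *Zeb2* was 4.86-fold higher (log2 fold change 2.28 ± 0.20) and *Nfib* 2.26-fold higher (1.18 ± 0.26, edgeR adjusted p = 0.00134). *Nfix* was 2.02-fold higher (1.02 ± 0.39, edgeR adjusted p = 0.0367), but not called by DESeq2 (adjusted p = 0.113) or without composition scaling (edgeR adjusted p = 0.0812). *Zeb1* was 8.48-fold, *Nfic* 3.52-fold, *Zfhx4* 3.18-fold and *Zfhx3* 2.56-fold lower. *Nfia* was not called (0.34 ± 0.37, edgeR adjusted p = 0.449), except without the low-count filter (0.47, edgeR adjusted p = 0.0318). The *Zfhx4* difference rested unevenly on the libraries, with a log2 value of -2.17 without replicate 1 and -1.21 without replicate 3.

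**Figure D2:**
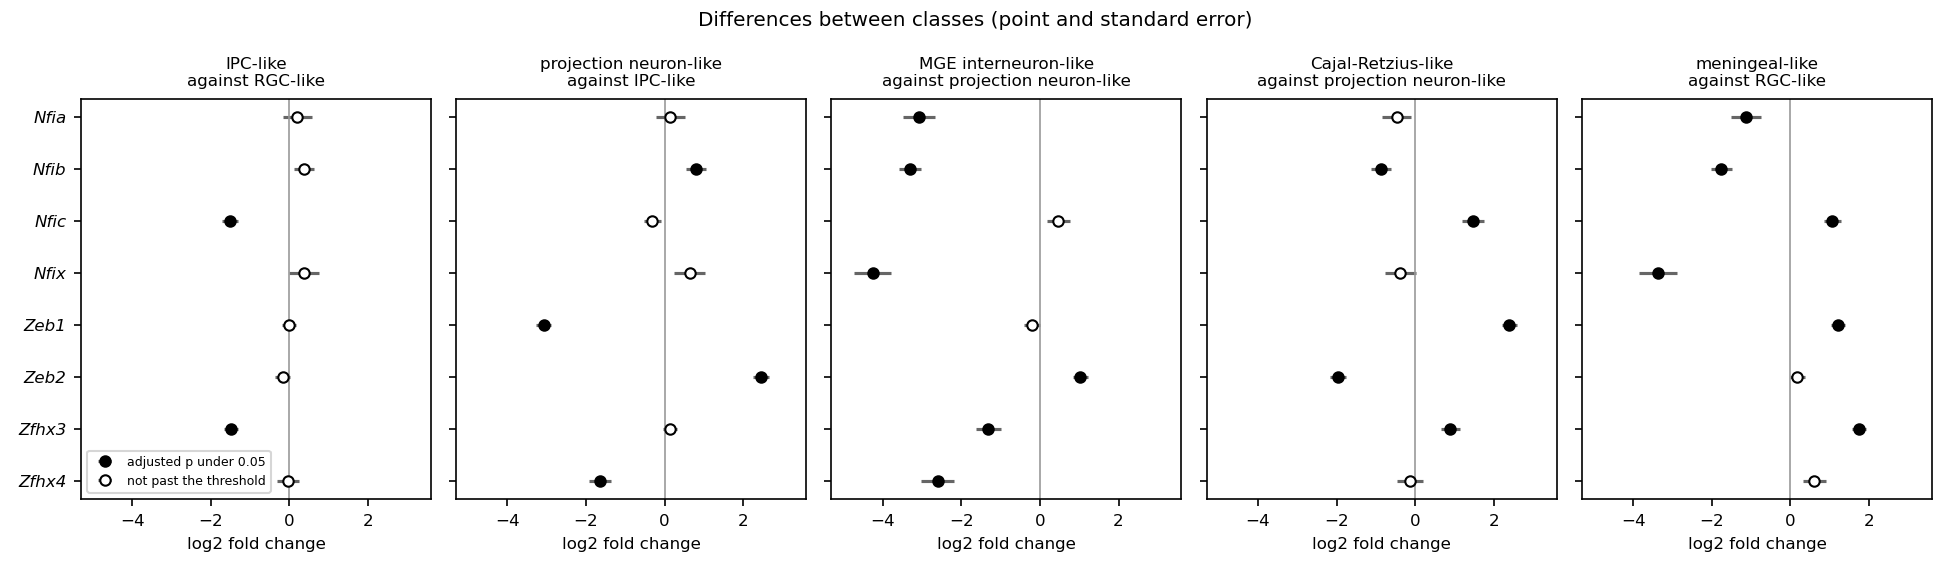
Log2 fold change (x axis, with bars of 1 standard error) of the 8 genes (y axis) in 5 comparisons of cell classes, from sums of UMIs in 2 libraries. Filled points passed an edgeR adjusted p of 0.05 and open points did not, and *Zeb1* (-3.07) and *Zeb2* (2.45) lie on opposite sides of 0 in projection neuron-like against IPC-like cells.

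The opposite levels of the ZEB genes were also described cell by cell, after cells were thinned to 3000 UMIs so that depth was equal. Cells with fewer UMIs were left out, in replicates 1 and 3 22 and 33 RGC-like, 3 and 45 IPC-like, 68 and 116 projection neuron-like, 68 and 63 MGE interneuron-like and 9 and 34 red blood cell-like cells. In replicates 1 and 3, *Zeb1* had a UMI in 69.2% and 63.8% of RGC-like, 57.5% and 63.5% of IPC-like and 10.4% and 11.5% of projection neuron-like cells. *Zeb2* had one in 52.7% and 48.8%, 47.8% and 37.0%, and 81.6% and 81.4% of them. In red blood cell-like cells, 0 of 48 and 0 of 60 held a *Zeb1* UMI, with 95% Wilson intervals reaching 7.41% and 6.02%, and 4.17% and 3.33% held a *Zeb2* UMI. Unthinned, *Zeb2* was found in 92.0% and 91.8% of projection neuron-like cells and in 5.26% and 6.38% of red blood cell-like cells, at median depths of 11322 and 10978.5 against 5311 and 4425 UMIs. These intervals cover counting error only.

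RGC-like cells with and without a *Zeb2* UMI held *Zeb1* at nearly the same rate, 68.4% and 70.0% in replicate 1 and 63.3% and 64.3% in replicate 3. IPC-like cells did too, with 58.0% and 57.0% in replicate 1 and 63.1% and 63.8% in replicate 3. Within projection neuron-like cells *Zeb1* was found in 9.45% of cells with a *Zeb2* UMI and 14.6% of those without in replicate 1, and in 10.2% and 17.2% in replicate 3. The Wilson intervals of the projection neuron-like shares did not overlap in either replicate (8.29% to 10.8% against 11.7% to 18.0% in replicate 1). They cover counting error over cells only and are no test between libraries. The class also mixes clusters that differ in both genes. *Zeb1* was 72.4 and 67.6 CPM and *Zeb2* 647 and 652 CPM in the *Unc5d*-led cluster. In the *Kctd8*-led cluster *Zeb1* was 12.5 and 17.7 CPM and *Zeb2* 1722 and 1618 CPM. The part of this mixture in the shares was not tested.

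**Figure D3:**
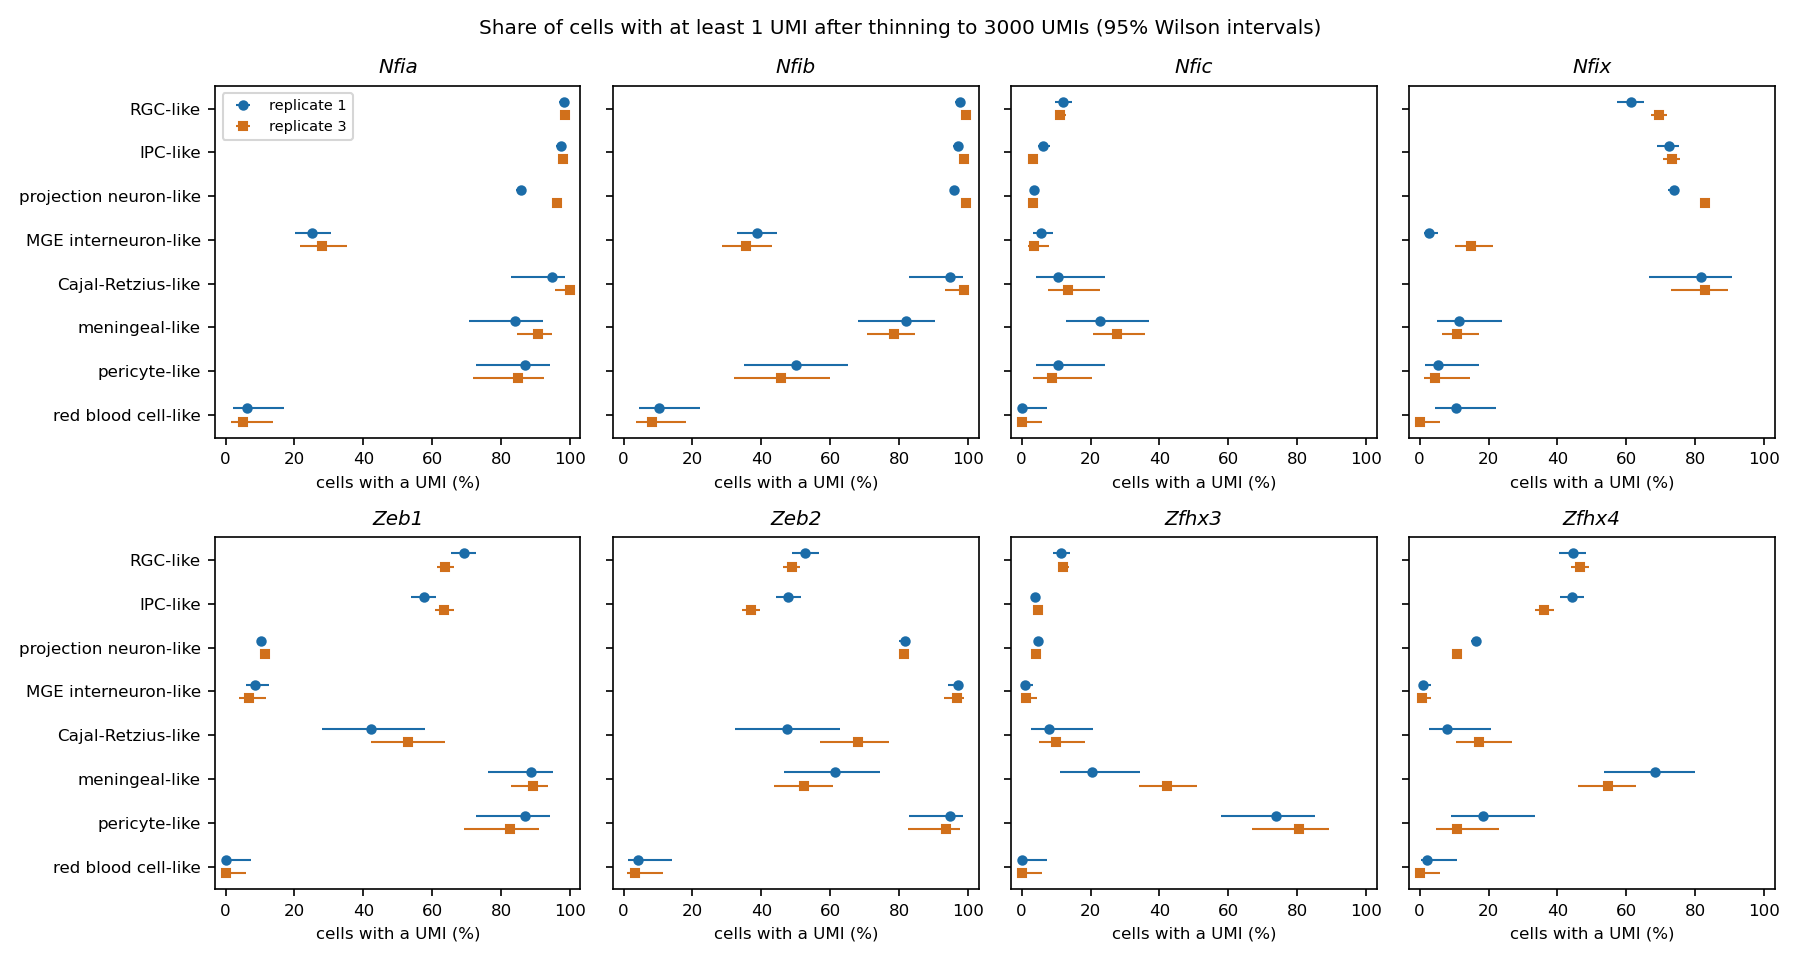
Share of cells with at least 1 UMI (x axis, percent) of each gene in 8 cell classes (y axis) among cells with at least 3000 UMIs, each thinned to that number, with 95% Wilson intervals, circles for replicate 1 and squares for replicate 3. *Zeb2* was found in 97.0% and 96.9% of MGE interneuron-like cells, and red blood cell-like cells at the bottom of each panel show the level of free RNA.

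Projection neuron-like cells were not uniform. A cluster led by *Tafa1*, *Tafa2* and *Tfap2d* (466 cells in replicate 1 and 180 in replicate 3) had the lowest levels of 3 NFI genes among the 8 projection neuron-like clusters. *Nfib* was 1659 and 1854 CPM there, against 3820 to 6216 CPM in the other 7 clusters. *Nfia* was 666 and 545 CPM, against 1117 to 3348, and *Nfix* was 152 and 167 CPM, against 427 to 1479. The same cluster had the highest *Zfhx4*, at 332 and 217 CPM. It took a larger share of replicate 1, and leaving it out moved the log2 difference of *Zfhx4* from -1.64 to -2.24 against IPC-like cells and from -1.67 to -2.26 against RGC-like cells, while the counts of members called in these comparisons stayed at 2 higher and 2 lower, and 3 higher and 4 lower. This alternative was chosen after seeing the data.

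At the other end, the cluster led by *Pcp4*, *Mfap4* and *Nhlh1*, which also carried IPC markers, had the highest *Nfib* (6216 and 5947 CPM), *Nfia* (3348 and 3280 CPM) and *Zeb1* (115 and 132 CPM) of the 8. *Zeb2* was lowest in the *Unc5d*-led (647 and 652 CPM) and the *Tafa1*-led cluster (771 and 506 CPM), which overlap, and reached 1722 and 1618 CPM in the cluster led by *Kctd8* and *Ldb2*, where *Zfhx4* was 0.34 and 1.59 CPM.

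Deep-layer corticothalamic-like cells (693 and 786 cells) were compared with newborn migrating-like projection neurons (715 and 1087 cells), which carry markers such as *Unc5d* and *Sema3c*. These names are loose. The *Slit3*-led corticothalamic-like cluster (152 and 218 cells) carried 3 of 5 markers of each subclass. Both newborn migrating-like clusters carried all 6 upper layer or callosal markers besides all 5 newborn markers. Such ties were settled by the alphabetical order of the names. *Zfhx4* was 5.27 and 4.61 CPM in corticothalamic-like cells and 110 and 70.4 CPM in newborn migrating-like cells. Within the newborn class it was 183 and 133 CPM in the *Unc5d*-led cluster but 10.0 and 7.79 CPM in the *Chrna7*-led one (250 and 459 cells), so 1 of the 2 clusters carried the class value. The difference was 17.9-fold (log2 fold change -4.16 ± 0.46, edgeR adjusted p = 0.000998). Its size depended on the cells taken, with log2 values of -1.97 with doublets kept, -3.51 with the stricter filter, -3.44 at a resolution of 0.6 and -3.08 at 1.5, all called. *Zfhx3* was 1.72-fold higher in corticothalamic-like cells (24.7 and 19.8 against 14.0 and 12.5 CPM, log2 0.78 ± 0.16, edgeR adjusted p = 0.00985), so the ZFHX genes differed in direction. *Zeb2* was 1.49-fold higher (0.57 ± 0.14, edgeR adjusted p = 0.0203) and *Zeb1* 1.97-fold lower (-0.98 ± 0.29, edgeR adjusted p = 0.0382). In all 4 of 8 were called, 2 in each direction, against 33.4% of the 13984 genes tested (18.3% higher, 15.1% lower). The NFI genes did not pass, with log2 differences of 0.38 ± 0.23 for *Nfia*, -0.11 ± 0.18 for *Nfib*, -0.28 ± 0.17 for *Nfic* and 0.29 ± 0.18 for *Nfix*, although *Nfia* was called with the stricter filter on cells (0.55, edgeR adjusted p = 0.041). With doublets kept, the *Zeb1* and *Zeb2* calls were lost (edgeR adjusted p = 0.0701 and 0.069), as they were at a resolution of 1.5 (0.148 and 0.0783). The *Zeb2* call was also lost at a resolution of 0.6 (0.34, edgeR adjusted p = 0.0761).

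Progenitor clusters differed as well. The IPC-like cluster led by *Smoc1* and *Gadd45g* had *Zeb1* at 678 and 658 CPM and *Nfib* at 1818 and 1782 CPM. This cluster carried all 9 RGC markers as well as all 8 IPC markers. The tie was settled by alphabetical order, though *Gadd45g*, *Neurog2* and *Eomes* were among its leading genes. The IPC-like cluster led by *Kif26b* and *Eomes* had *Zeb1* at 259 and 406 CPM and *Nfib* at 3816 and 3699 CPM. Replicates of these clusters did not overlap in either gene. Among RGC-like clusters, the one led by *Ltbp1* and *Adamts19* had the highest *Nfix* (893 and 700 CPM) and *Nfib* (3213 and 2822 CPM) with *Zfhx3* at 14.3 and 27.8 CPM, overlapping only the cluster led by *Cenpa* (25.5 and 35.2 CPM). The one led by *Fabp7*, *Mt3* and *Tnc* had the lowest *Nfix* (282 and 270 CPM) and the highest *Zfhx4* (314 and 321 CPM).

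**Figure D4:**
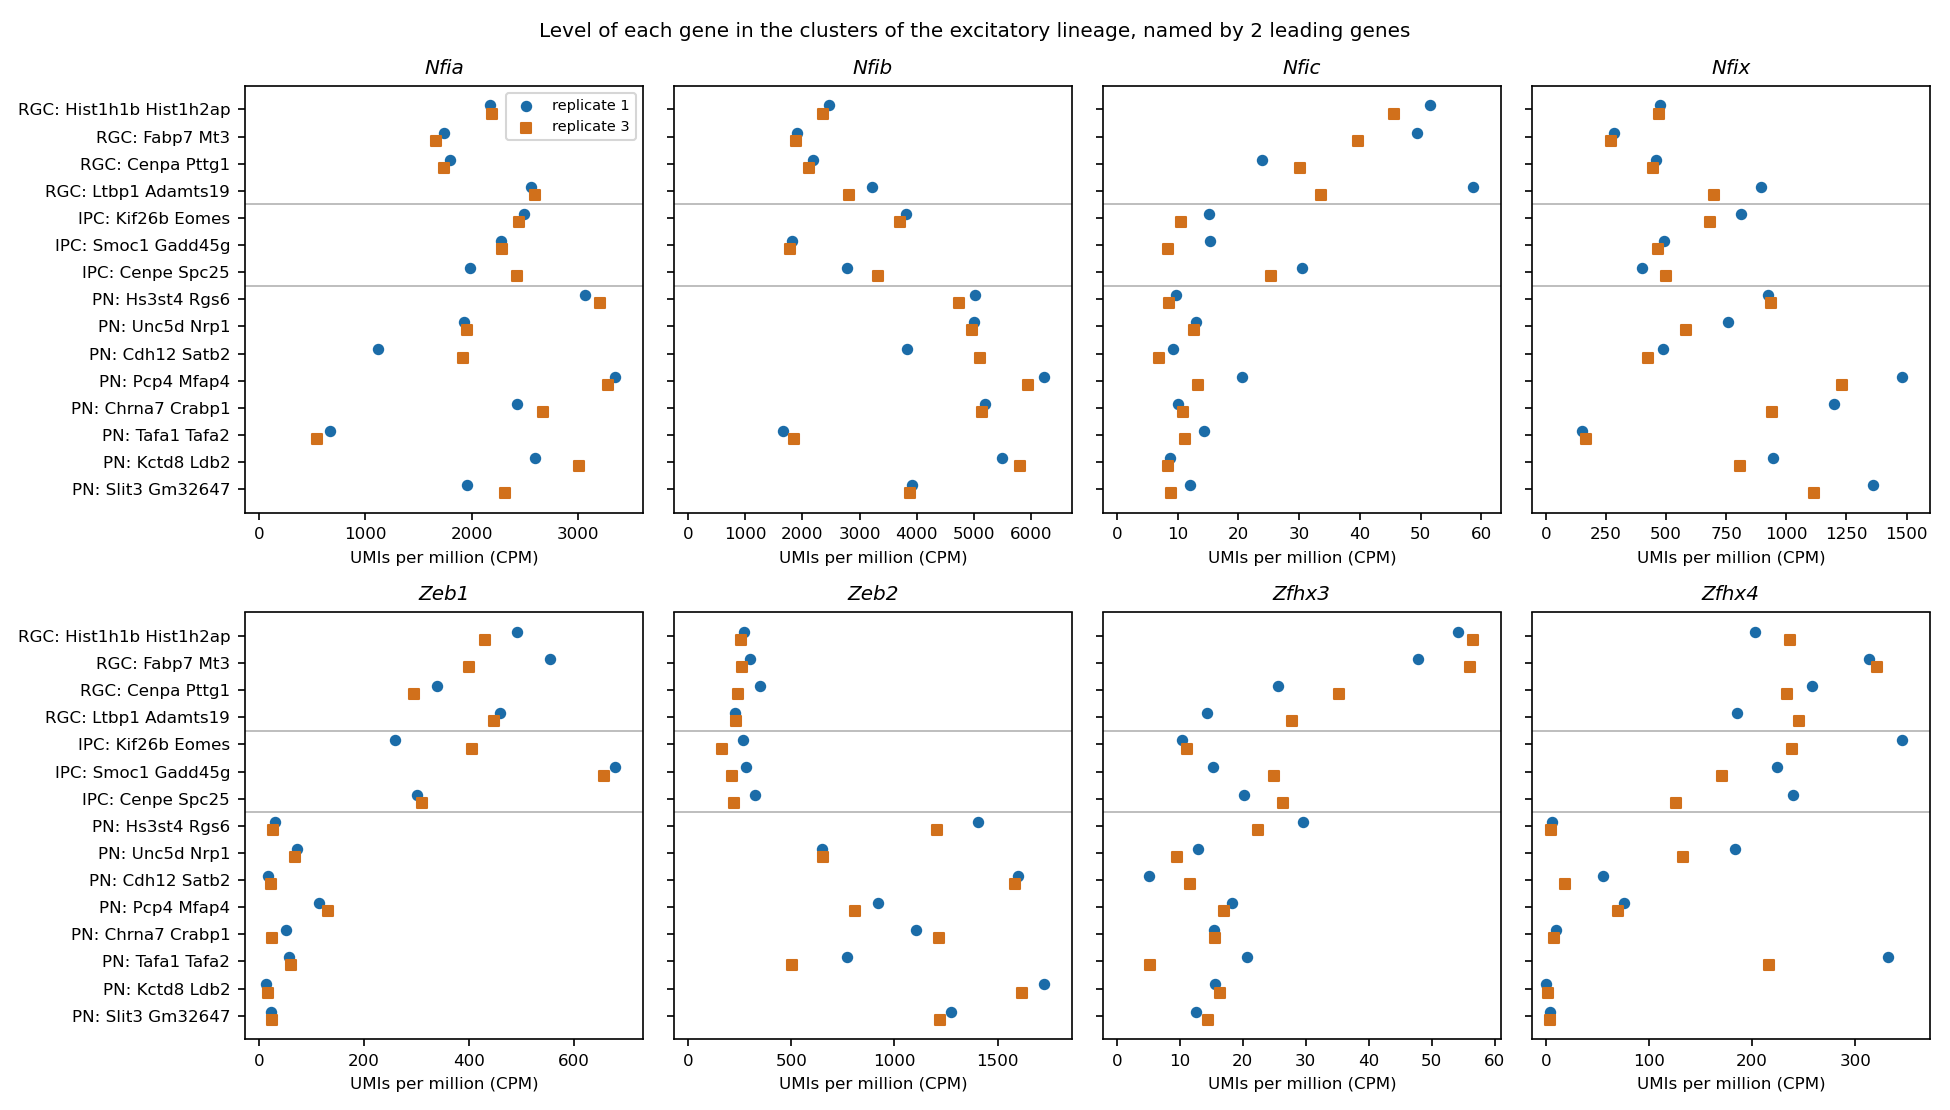
Level of each gene (x axis, CPM, linear, a separate scale per panel) in the 15 clusters of RGC-like, IPC-like and projection neuron-like (PN) cells (y axis, named by 2 leading genes), with circles for replicate 1 and squares for replicate 3. The *Tafa1* cluster stands low for *Nfia*, *Nfib* and *Nfix* and high for *Zfhx4* (332 and 217 CPM).

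Within RGC-like cells, phases were called from cells thinned to 3000 UMIs, and 2 of the 8 genes passed the threshold in S phase. *Zfhx3* was 22.4 and 28.2 CPM in G1, 54.2 and 55.8 CPM in S and 47.1 and 50.2 CPM in G2M. It was 2.17-fold higher in S than in G1 (log2 fold change 1.12 ± 0.15, edgeR adjusted p = 0.00448) and 1.92-fold higher in G2M (0.94 ± 0.14, edgeR adjusted p = 0.00847). *Nfix* was 549 and 595 CPM in G1 and 399 and 401 CPM in S, which was 1.4-fold lower (-0.48 ± 0.11, edgeR adjusted p = 0.0383). In S against G1, 1 gene was higher and 1 lower, against 7.02% of the 12571 genes tested that were called, 5.43% higher and 1.59% lower. In G2M against G1 1 of 8 was called, higher, against 6.87% of genes called, 5.0% higher and 1.87% lower. Median depth differed between the phases, with 10947.5 and 10414 UMIs in G1, 13887 and 12911.5 in S and 15603 and 13996 in G2M, and its part in the result was not tested.

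With the library as a replicate block, 5 genes were called in S phase. *Nfic* was then higher (log2 0.72, edgeR adjusted p = 0.00253), *Zfhx4* higher (0.22, edgeR adjusted p = 0.0304) and *Nfia* lower (-0.27, edgeR adjusted p = 0.00449), besides *Zfhx3* and *Nfix*. *Nfix* was also lower in G2M (-0.25, edgeR adjusted p = 0.00587). The block raised the number of genes called from 883 to 2659 in S phase and from 863 to 2945 in G2M. Without the block, *Nfic* was also called in S phase without the low-count filter (edgeR adjusted p = 0.00115) and with phases scored without thinning (0.0303). *Zeb1* and *Zeb2* were not called in either fit, with log2 differences of -0.05 ± 0.14 and -0.09 ± 0.12 in S phase. The *Ltbp1*-led RGC-like cluster, with low *Zfhx3* and high *Nfix*, is part of these cells, and how far it makes up the G1 calls was not tested.

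**Figure D5:**
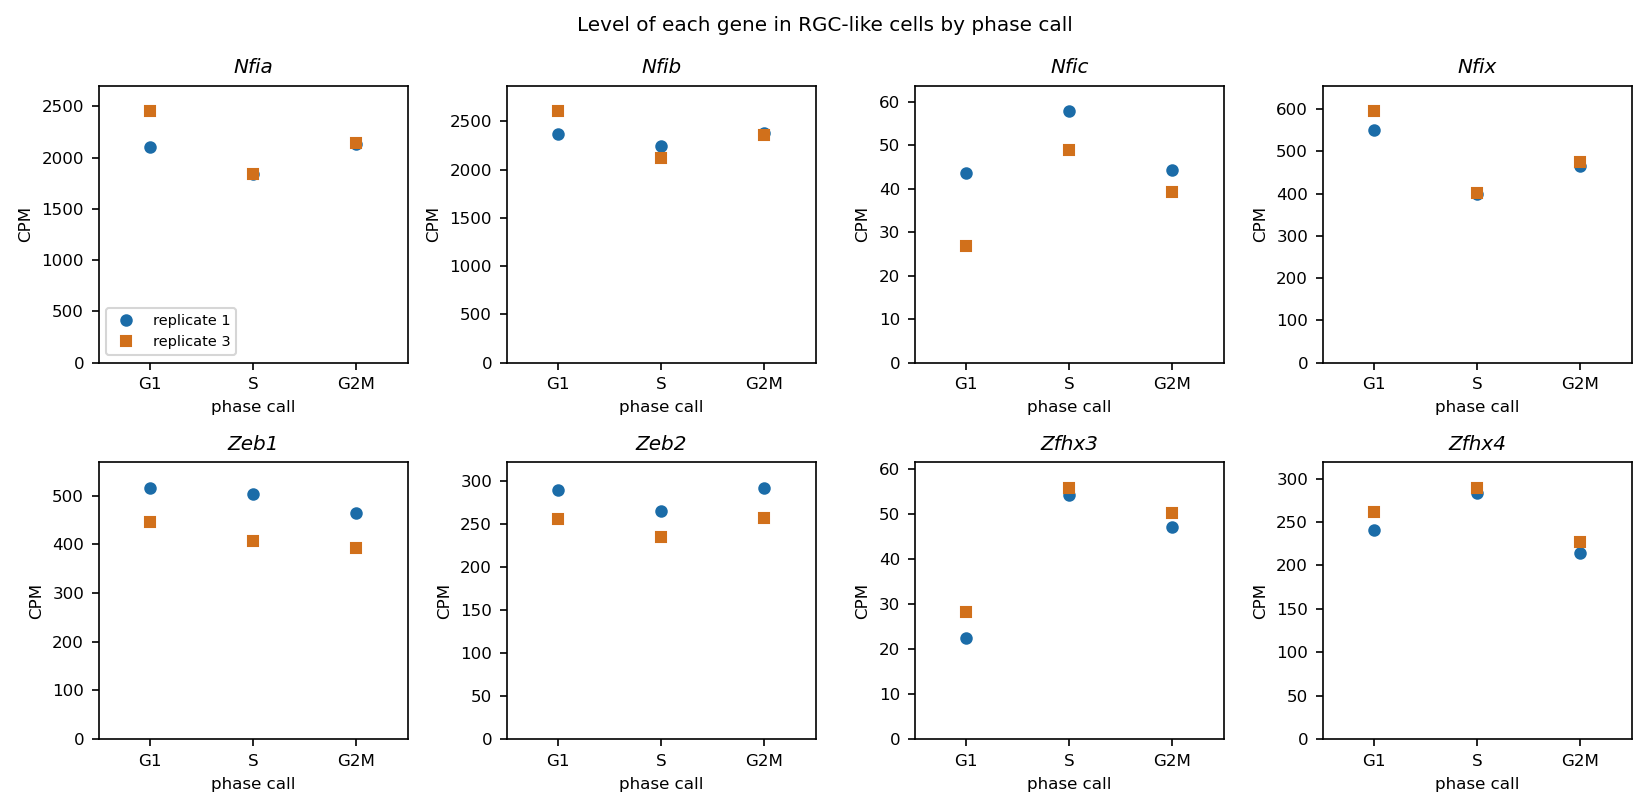
Level of each gene (y axis, CPM, from 0) in RGC-like cells called G1, S or G2M (x axis), with circles for replicate 1 and squares for replicate 3. *Zfhx3* is at 22.4 and 28.2 CPM in G1 and at 54.2 and 55.8 CPM in S, and *Nfix* is lower in S at 399 and 401 CPM.

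MGE interneuron-like cells were compared with projection neuron-like cells, the GABAergic and glutamatergic neurons of the same tissue. *Zeb2* was 2.03-fold higher (log2 fold change 1.02 ± 0.19, edgeR adjusted p = 0.00127), and 3 of the 4 NFI genes were lower. *Nfib* was 9.89-fold lower (-3.31 ± 0.28, edgeR adjusted p = 2.52e-06), *Nfia* 8.4-fold (-3.07 ± 0.40, edgeR adjusted p = 0.000105) and *Nfix* 19.1-fold lower (-4.25 ± 0.47, edgeR adjusted p = 2.83e-05). *Zfhx4* was 6.05-fold lower (-2.60 ± 0.42, edgeR adjusted p = 0.000469). *Nfic* (0.47 ± 0.30) and *Zeb1* (-0.21 ± 0.21) did not pass. In all 6 of 8 were called, 1 higher and 5 lower, against 32.8% of all genes tested, with 14.0% called higher and 18.8% lower. The median log2 difference was -1.96 over the 8 genes and -0.05 over all genes.

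Sizes in this comparison rest on few UMIs, differ between libraries or move with the cells kept. With doublets kept, the log2 differences were -1.88 for *Nfib*, -1.78 for *Nfia*, -2.16 for *Nfix* and -1.62 for *Zfhx4*, all still called. At a resolution of 1.5 *Nfix* was -3.62 and *Zfhx4* -1.61. Without the *Tafa1*-led projection neuron-like cluster, *Zfhx4* was -2.00. *Nfia* was 127 CPM in replicate 1 and 459 in replicate 3, so its log2 difference was -2.59 without replicate 1 and -4.06 without replicate 3. For *Nfix* these values were -3.47 and -5.78. Red blood cell-like cells had 167 and 28.8 CPM of *Nfia*, a range that overlaps MGE interneuron-like cells and lies above them in replicate 1. By CPM, the low end of this *Nfia* difference could not be told apart from free RNA. The share of MGE interneuron-like cells with a *Nfia* UMI after thinning was 25.1% and 28.0%, close in the 2 libraries although the CPM was not, against 6.25% and 5.0% of red blood cell-like cells. For *Nfix* it was 2.62% against 10.4% in replicate 1, at or below the free RNA measure, and 14.9% against 0 of 60 cells in replicate 3. *Zfhx4*, with 21 and 14 UMIs, had a UMI in 1.12% and 0.62% of cells, no higher than in red blood cell-like cells of replicate 1 (2.08%).

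*Zfhx3* was called lower in MGE interneuron-like cells (-1.32 ± 0.31, edgeR adjusted p = 0.0063) from 15 and 5 UMIs. This call was lost with the stricter filter on cells (-0.67, edgeR adjusted p = 0.13), and the difference turned positive, at 0.58, at a finer clustering with a resolution of 1.5. The value without replicate 1 was -1.91 and without replicate 3 -1.01.

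Cajal-Retzius-like cells (38 and 82 cells) had more *Zeb1* and less *Zeb2* than projection neurons. *Zeb1* measured 315 and 278 CPM, 5.25-fold above projection neuron-like cells (log2 fold change 2.39 ± 0.19, edgeR adjusted p = 1.53e-06), or 1.78 on the log2 scale with doublets kept. *Zeb2* measured 374 and 342 CPM, 3.89-fold below them (-1.96 ± 0.20, edgeR adjusted p = 1.21e-05). *Nfic* was 2.76-fold higher (1.47 ± 0.28, edgeR adjusted p = 0.00148), with log2 values of 1.83 without replicate 1 and 0.68 without replicate 3. *Zfhx3* was 1.86-fold higher (0.90 ± 0.24, edgeR adjusted p = 0.0129), a call lost at a resolution of 1.5 (0.88, edgeR adjusted p = 0.218), and *Nfib* 1.82-fold lower (-0.87 ± 0.26, edgeR adjusted p = 0.0223). In all 5 of 8 were called, 3 higher and 2 lower, against 28.6% of all genes (13.6% higher, 15% lower). Without the low-count filter *Nfia* (-0.64, edgeR adjusted p = 0.00524) and *Nfix* (-0.55, edgeR adjusted p = 0.0193) were called lower too. Without composition scaling the median of all genes moved by 0.29 (log2) in this comparison, the share of called genes that were higher went from 47.7% to 71.9%, and the *Nfib* call was lost (-0.58, edgeR adjusted p = 0.107). The *Nfib* call was also lost at a resolution of 0.6 (-0.87, edgeR adjusted p = 0.065).

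Meningeal-like cells (44 and 131 cells), the fibroblasts that cover the brain, were set against RGC-like cells, which contact them with their endfeet. *Zfhx3* was 3.33-fold higher (log2 fold change 1.74 ± 0.18, edgeR adjusted p = 5.04e-06), *Zeb1* 2.33-fold (1.22 ± 0.18, edgeR adjusted p = 9.84e-05) and *Nfic* 2.09-fold higher (1.06 ± 0.22, edgeR adjusted p = 0.00131). *Nfix* was 10.4-fold lower (-3.37 ± 0.48, edgeR adjusted p = 6.81e-05; -1.96 with doublets kept), at a meningeal-like level that overlaps the free RNA measure, *Nfib* 3.39-fold (-1.76 ± 0.26, edgeR adjusted p = 0.000112) and *Nfia* 2.19-fold lower (-1.13 ± 0.38, edgeR adjusted p = 0.0234). The *Nfia* call was lost with the stricter filter on cells (edgeR adjusted p = 0.0575). *Zeb2* (0.17 ± 0.20) and *Zfhx4* (0.61 ± 0.29) did not pass, but *Zfhx4* was called without the low-count filter (edgeR adjusted p = 0.00825) and with only the 2 classes fitted (0.00883). In all 6 of 8 were called, 3 in each direction, against 49.8% of all genes (24.7% higher, 25.1% lower).

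Over the 12 named classes, the NFI genes did not form 1 group. These classes include red blood cell-like cells, used here as the measure of free RNA, where several of the genes are near 0. They also include the classes with fewer than 30 cells in a replicate, such as LGE-like cells, whose replicates differed strongly. How far these classes set the r values was not tested. As a description over 12 points that share 2 libraries, the levels (log2(CPM + 1), mean of replicates) of *Nfib* correlated with those of *Nfia* and *Nfix* at Pearson r = 0.86 for both, and those of *Nfia* and *Nfix* at 0.75. *Nfic* had r = -0.07 with *Nfix* and 0.82 with *Zeb1*. *Zeb1* and *Zeb2* had r = 0.02, and *Zfhx3* and *Zfhx4* 0.51. Among 13257 genes, the profiles most like that of *Nfix* were those of *Emx1*, a dorsal telencephalic homeobox gene (0.94), *Lhx9* (0.93) and *E130114P18Rik* (0.93). Those most like *Zfhx4* were *Col11a1* (0.93), *Sdk2* (0.93) and *Dusp28* (0.90). For *Nfia* they were *Ddah2*, *Eef1akmt2* and *Skp1a* (0.95 to 0.96), for *Nfib* *Fdft1*, *Timm8b* and *Tnik* (0.91 to 0.94) and for *Nfic* *Kdelr2*, *Alg6* and *Tmem164* (0.97 to 0.98). For *Zeb1* they were *Gm13483*, *Calu* and *Pigl* (0.96 to 0.97), for *Zeb2* *Zfp712*, *Epb41l1* and *Itsn1* (0.91 to 0.94) and for *Zfhx3* *Tmem219*, *Ubxn8* and *Coro1b* (0.91 to 0.94).

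Counts over 3 related gene lists are set beside the share of all genes called in the same comparison. That share, higher and lower in turn, was 17.1% and 22.6% in IPC-like against RGC-like cells, 24.5% and 21.2% in projection neurons against IPC-like cells, 31.6% and 30% against RGC-like cells, 14.0% and 18.8% in MGE interneuron-like cells, 13.6% and 15% in Cajal-Retzius-like cells, 24.7% and 25.1% in meningeal-like cells and 18.3% and 15.1% in corticothalamic-like cells. In RGC-like cells it was 5.43% and 1.59% in S against G1 and 5.0% and 1.87% in G2M against G1.

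Genes known as targets or partners of NFI proteins were read from a list of 14, of which 11 were tested between classes. The list holds genes of progenitors and radial glia, such as *Hes1*, *Sox9* and *Tnc*. Its fall towards neurons therefore cannot be read as NFI activity, which was not tested. In projection neuron-like against IPC-like cells 7 of the 11 were lower, against 21.2% of all genes, and 0 higher, with a list median log2 difference of -1.12 against 0.02 for all genes. They include *Hes1*, a Notch effector that keeps progenitors undifferentiated (log2 -3.22 ± 0.25), *Sox9*, a glial and progenitor transcription factor (-2.54 ± 0.23), *Tnc*, an extracellular matrix protein of radial glia (-2.96 ± 0.55), and *Zcchc24* (-5.20 ± 0.67). In IPC-like against RGC-like cells 5 of 11 were lower and 0 higher, with *Tnc* at -4.50 ± 0.45 and *Hes1* at -3.51 ± 0.19. In MGE interneuron-like against projection neuron-like cells 3 were lower, *Apcdd1* (-3.69 ± 0.66), *Mmd2* (-3.58 ± 0.32) and *Bbx* (-0.97 ± 0.22), and *S100b* was higher (1.36 ± 0.45). In corticothalamic-like against newborn migrating-like cells 3 of 10 were higher, led by the glutamate transporter gene *Slc1a2* (2.45 ± 0.19), and 2 lower. *Ezh2*, a histone methyltransferase, was the one gene of 13 tested that was called in S phase (0.94 ± 0.15) and in G2M (1.03 ± 0.15) of RGC-like cells. These counts lie near the 7.02% and 6.87% of all genes called in the 2 phases. Against RGC-like cells, 7 of 11 were lower and 1 higher in projection neurons. In meningeal-like against RGC-like cells 7 were lower and 2 higher, and in Cajal-Retzius-like against projection neuron-like cells 2 were lower and 2, among them *Sox9* (2.94 ± 0.28), higher.

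Of 18 ZEB partners and targets, 8 were tested between classes. *Smad3*, a TGF-beta signal transducer, was lower in IPC-like than in RGC-like cells (-2.21 ± 0.27) and lower again in projection neuron-like cells (-1.27 ± 0.29 against IPC-like). It was higher in MGE interneurons when set against projection neurons (2.90 ± 0.36) and in meningeal-like than in RGC-like cells (1.91 ± 0.26). *Sfrp1*, a secreted Wnt modulator, was lower at both steps of the excitatory lineage (-1.44 ± 0.23 and -1.47 ± 0.23). *Ctbp2*, a corepressor that binds ZEB proteins, was lower in IPC-like than in RGC-like cells (-0.70 ± 0.14). By count, 3 of 8 were lower and 0 higher in IPC-like against RGC-like cells (list median -0.14, all genes -0.04), 2 lower and 0 higher in projection neuron-like against IPC-like cells, the 2 lower lying near the 21.2% of all genes, and 1 in each direction in MGE interneuron-like cells. In projection neurons against RGC-like cells 3 were lower and 1, *Smad2* (0.31 ± 0.11), higher. In Cajal-Retzius-like cells 3 were lower and 1 higher, *Smad1* (1.63 ± 0.13), and in meningeal-like cells 4 were lower and 1 higher. In corticothalamic-like against newborn migrating-like cells 3 of 10 were lower, among them *Sfrp1* (-1.03 ± 0.10). *Smad2* was the one gene of the list called in a phase, higher in S (0.51 ± 0.11).

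All 10 other zinc finger homeobox and related genes on the third list were tested. In projection neuron-like against IPC-like cells 3 were higher and 4 lower, against 24.5% and 21.2% of all genes (list median -0.12, all genes 0.02). *Tshz2* (2.79 ± 0.26) and *Tshz3* (2.57 ± 0.38), teashirt zinc finger genes, were higher, and *Zhx2* (-2.68 ± 0.25) and *Tshz1* (-1.69 ± 0.17) lower. In IPC-like against RGC-like cells 3 were higher, led by *Zhx3* (1.30 ± 0.16) and *Zfhx2* (1.03 ± 0.20), the relative of *Zfhx3* and *Zfhx4*, and 2 lower. In MGE interneuron-like against projection neuron-like cells *Tshz1* was higher (1.99 ± 0.19) and *Tshz2* lower (-1.17 ± 0.31), with 2 higher and 1 lower in all, near the 14.0% and 18.8% of all genes. In corticothalamic-like against newborn migrating-like cells *Tshz3* (4.23 ± 0.25) and *Tshz2* (2.91 ± 0.28) were higher, and *Zhx1* (-2.08 ± 0.21) and *Tshz1* (-2.02 ± 0.16) were among 3 that were lower. In Cajal-Retzius-like cells 2 were higher and 4 lower, in meningeal-like cells 2 higher and 1 lower, and in projection neurons against RGC-like cells 4 higher and 3 lower. Of the phase comparisons, 1 call was made, *Tshz2* lower in G2M (-1.33 ± 0.29).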

How the data were processed

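The authors deposited UMI counts per gene and cell for 2 libraries, made with Cell Ranger 7.0.0 against mm10 according to the submitters' processing notes and the paper's methods. The annotation, the handling of introns and the cell calling are not given in the sources used here. The deposited counts are raw and were not normalized. Barcodes outside 1500 to 60000 UMIs, or above 10% mitochondrial UMIs, were dropped (710 and 1387), and 269 and 531 predicted doublets were then left out with a score from simulated doublets. Cells were clustered (2000 variable genes, 30 principal components, 15 neighbours, Leiden resolution 1.0; scanpy 1.11.5, igraph 0.11.9). The 8 genes and the related lists were kept out of the variable genes. Clusters were named from fixed markers, 121 genes in all, where at least 3 were on, and 326 cells stayed unnamed. Of these, 72 were in a cluster led by markers of another class. The other clusters, of 135 and 119 cells, had low UMIs and fewer than 5 markers of their class among the 10 leading genes. The class with the largest share of its markers on was taken, and ties went by alphabetical order. Phases were called from 43 S and 53 G2M genes, which were left out of that test.

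UMIs were summed per class and library. Sums of the 7 classes with at least 30 cells in each library, red blood cell-like cells apart, entered 1 fit by edgeR 4.0.16 (TMM, filterByExpr, quasi-likelihood test, Benjamini-Hochberg adjustment over all genes tested, threshold 0.05), and projection neuron-like subclasses and RGC-like phases had a fit each. Fold changes are log2 with standard errors. Each edgeR standard error was derived as the absolute log2 fold change divided by the square root of the quasi-likelihood F statistic. The fits were tested on simulated data, where false calls made up more of all calls than the nominal threshold in each of the 3 fits, so adjusted p-values near the threshold are optimistic. Equal replicate numbers mark the same library: the residuals of same-numbered sums correlated at 0.00127 to 0.352 over 21 pairs of classes, 0.209 to 0.298 over 3 pairs of subclasses and 0.314 to 0.391 over 3 pairs of phases. The main fits have no block, and the fit with the block was an alternative. Other alternatives were library sizes only, DESeq2 1.42.0, no filter on low counts, only the 2 classes compared, each replicate left out, predicted doublets kept, a stricter cell filter (3000 UMIs, 5% mitochondrial), Leiden resolutions of 0.6 and 1.5, phases scored without thinning and shares thinned to 1500 UMIs or not at all.

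The genes named are the 8 members everywhere, up to 4 genes per related list and comparison that passed the threshold, moved alike in both replicates and had the largest fold changes, and for each member the 3 genes with the most similar profile. Genes that lead or mark clusters are named only to identify the cluster. The members and the lists were chosen with earlier results of these data known.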

Additional observations from a re-analysis of the deposited data

How the results depend on the processing

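Library sizes only moved the share of called genes that were higher from 53.6% to 40.4% in projection neurons against IPC-like cells, and DESeq2 moved it from 42.6% to 53.6% in MGE interneuron-like cells. The counts of members called moved by over 1.5 times in few settings. In IPC-like against RGC-like cells, 2 members were higher when only the 2 classes were fitted. In projection neuron-like against IPC-like cells, 1 member was higher with library sizes only, with the stricter filter and at a resolution of 0.6. In Cajal-Retzius-like cells, 1 member was lower with library sizes only and at 0.6, and 4 without the filter on low counts. In corticothalamic-like against newborn migrating-like cells, 1 was higher with doublets kept and at 0.6 and 1.5, and 1 lower with doublets kept and at 1.5. In S phase, 2 were higher without the low-count filter and without thinning. Counts of all genes called went to 2855 in MGE interneuron-like cells with the stricter filter, to 2054 in corticothalamic-like cells at 1.5, and to 1835 in S and 1874 in G2M phase without the low-count filter.

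The replicate block called 3 members higher and 2 lower in S phase and 1 lower in G2M, with 2659 and 2945 genes called. It changed no other call of a member.

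Of differences that changed sign, 1 had been called, *Zfhx3* in MGE interneuron-like cells (0.58 at a resolution of 1.5). The others had not been called. In IPC-like against RGC-like cells *Zeb1* was 0.065 without the low-count filter, 0.057 with only the 2 classes, 0.036 with doublets kept, 0.013 with the stricter filter, 0.083 at 0.6 and 0.040 at 1.5. *Zfhx4* was 0.057, 0.050 and 0.032 without the filter, with only the 2 classes and at 1.5, and *Zeb2* was 0.11 with the stricter filter and 0.063 at 0.6. In projection neurons against IPC-like cells *Nfia* was -0.022 with library sizes only, -0.14 with the stricter filter and -0.0056 at 0.6, and *Zfhx3* -0.026 with library sizes only. *Zeb1* in MGE interneuron-like cells was 0.041 with the stricter filter and 0.33 at 0.6. *Zfhx4* in Cajal-Retzius-like cells was 0.17 with library sizes only, 0.47 without the *Tafa1*-led cluster and 0.21 at 0.6. In corticothalamic-like cells *Nfib* was 0.023 with doublets kept, 0.069 with the stricter filter, 0.050 at 0.6 and 0.15 at 1.5, and *Nfix* -0.10 with doublets kept and -0.12 at 1.5. *Nfib* in G2M was 0.0095 without the low-count filter. Leaving out 1 library also turned differences that had not been called, with ranges of -1.25 to 0.76 for *Zfhx4* in Cajal-Retzius-like cells, -0.27 to 0.29 for *Zeb1* and -0.27 to 0.25 for *Zfhx4* in IPC-like against RGC-like cells, -0.09 to 0.44 for *Zfhx3* in projection neurons against IPC-like cells, and -0.18 to 0.06 for *Nfia* and -0.12 to 0.05 for *Nfib* in G2M. Causes were not tested.

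Depth limits the genes with few UMIs, *Nfic*, *Zfhx3* and *Zfhx4* in small classes. LGE-like against MGE interneuron-like cells was not run, since replicate 3 held 26 LGE-like cells.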
